A study of Rattus norvegicus with 11 samples.

Results

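The genes described here are those of the nuclear genome that encode the mitochondrial respiratory chain and the ATP synthase. They were taken from the count table by name: symbols starting with Nduf, Uqcr or Atp5, or with Cox4i, Cox5, Cox6, Cox7 or Cox8, together with Sdha, Sdhb, Sdhc, Sdhd and Cycs. Pseudogene names and the assembly factors whose symbols start with Ndufaf were dropped, and a total of at least 110 counts over all 11 libraries was asked for. Of 25274 gene rows, 88 matched by name and 81 met the minimum, 34 in complex I, 4 in complex II, 9 in complex III, 1 for cytochrome c, 17 in complex IV and 16 in complex V. The rule used total counts over both groups and no difference between them. The rows just inside the minimum were Atp5f1 and Cox8b, with 113 counts each, and the nearest row outside was Cox6a2, with 73 counts. Of the Cox8b counts, 106 came from 1 library, so Cox8b met the minimum only through that library. The other rows outside were Cox7a1 with 14 counts, 2 rows for Ndufa1 with 1 and 0 counts, and Ndufb4l1, Cox7b2 and Cox8c with 0.

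The tissue was retroperitoneal white adipose tissue, the fat pad behind the abdominal cavity, from individual female Wistar rats that were 10 weeks old when a western diet began and 19 weeks old at harvest. All 11 rats ate that diet for 6 weeks, had their ovaries removed and were given degarelix, which blocks the receptor for gonadotropin-releasing hormone (GnRH) so that the pituitary secretes less follicle-stimulating hormone (FSH) and luteinizing hormone. Osmotic pumps then delivered vehicle alone in 6 rats (degarelix only) or FSH in 5 rats (degarelix plus FSH, a daily dose of 6 µg/kg), with food limited for 12 days, free feeding for 7 days and a fast of 4 h before harvest. The comparison is therefore FSH against vehicle on top of ovary loss and GnRH receptor blockade in every rat, and rats with ovaries or without degarelix were not analysed here.

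In the respiratory chain, complex I takes electrons from NADH and complex II takes them from succinate, both pass them to ubiquinone, complex III passes them on to cytochrome c, and complex IV hands them to oxygen. Complexes I, III and IV pump protons across the inner mitochondrial membrane, and the ATP synthase (complex V) uses the return flow to make ATP. White adipocytes hold fewer mitochondria than brown adipocytes, in which uncoupling protein 1 (Ucp1) lets protons return without making ATP, and several cytochrome oxidase subunits come in isoforms that mark muscle or brown fat. Most subunits are encoded in the nucleus, and their promoters are known for binding sites of nuclear respiratory factor 1 (NRF1), GABP (an ETS factor also called NRF2), ERR receptors, YY1 and SP1.

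Promoter sequences are printed to describe the start regions of these genes, and their part in differences between rats was not tested. They are the 250 bases before the annotated start of 1 core subunit per complex, of cytochrome c and of Cox8b, the isoform with most of its counts in 1 rat, from RefSeq (GRCr8), on the strand given and read 5′ to 3′. Capitals mark matches, on either strand, to GCGCANGCG (NRF1), CCGGAAGT (GABP), AAGGTCA (ERR), AAGATGGCG (YY1) or GGGCGG (SP1).
Ndufs1 (complex I), chr9:72073606-72073855, minus strand: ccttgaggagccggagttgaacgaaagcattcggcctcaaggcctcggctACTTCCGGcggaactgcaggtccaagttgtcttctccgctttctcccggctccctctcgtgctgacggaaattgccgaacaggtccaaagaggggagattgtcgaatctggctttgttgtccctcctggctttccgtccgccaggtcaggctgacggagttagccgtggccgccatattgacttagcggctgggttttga
Sdha (complex II), chr1:30764303-30764552, plus strand: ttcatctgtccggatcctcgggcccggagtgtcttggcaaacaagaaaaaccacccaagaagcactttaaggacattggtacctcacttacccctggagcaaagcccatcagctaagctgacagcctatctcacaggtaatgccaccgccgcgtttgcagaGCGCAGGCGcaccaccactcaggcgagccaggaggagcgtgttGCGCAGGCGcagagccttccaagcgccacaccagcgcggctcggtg
Uqcrc1 (complex III), chr8:118467973-118468222, plus strand: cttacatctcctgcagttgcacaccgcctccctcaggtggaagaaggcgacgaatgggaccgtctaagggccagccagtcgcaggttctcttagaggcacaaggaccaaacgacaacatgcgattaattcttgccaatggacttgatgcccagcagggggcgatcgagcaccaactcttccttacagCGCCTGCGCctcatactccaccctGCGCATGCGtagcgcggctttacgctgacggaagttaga
Cycs (cytochrome c), chr4:80984768-80985017, minus strand: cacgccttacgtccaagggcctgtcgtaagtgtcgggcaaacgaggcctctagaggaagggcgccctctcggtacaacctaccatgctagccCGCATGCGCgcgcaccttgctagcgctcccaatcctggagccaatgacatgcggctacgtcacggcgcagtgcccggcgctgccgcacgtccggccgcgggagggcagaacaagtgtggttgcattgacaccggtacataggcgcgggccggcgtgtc
Cox4i1 (complex IV), chr19:65630133-65630382, plus strand: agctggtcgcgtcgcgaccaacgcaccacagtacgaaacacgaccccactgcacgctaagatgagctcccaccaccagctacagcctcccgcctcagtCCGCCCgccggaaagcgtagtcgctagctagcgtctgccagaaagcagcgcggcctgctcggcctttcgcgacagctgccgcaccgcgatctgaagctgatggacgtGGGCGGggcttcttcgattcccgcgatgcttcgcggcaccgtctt
Atp5b (complex V, Atp5f1b in RefSeq), chr7:1099808-1100057, plus strand: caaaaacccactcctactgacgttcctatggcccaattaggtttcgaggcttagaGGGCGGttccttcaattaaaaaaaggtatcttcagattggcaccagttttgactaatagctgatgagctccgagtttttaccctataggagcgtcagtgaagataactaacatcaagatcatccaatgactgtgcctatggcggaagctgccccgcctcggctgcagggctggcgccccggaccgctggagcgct
Cox8b (complex IV, muscle and brown fat isoform), chr1:205408274-205408523, minus strand: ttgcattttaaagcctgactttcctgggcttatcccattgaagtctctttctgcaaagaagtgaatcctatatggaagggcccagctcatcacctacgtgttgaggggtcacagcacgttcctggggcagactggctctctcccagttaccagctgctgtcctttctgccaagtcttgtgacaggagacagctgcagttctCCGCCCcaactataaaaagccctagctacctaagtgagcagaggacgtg

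Sdha and Uqcrc1 each held 2 NRF1 matches in the bases printed and Cycs held 1, Ndufs1 held 1 GABP match, and Cox4i1, Atp5b and Cox8b held only SP1 matches. RefSeq windows of 300 bases (250 before and 50 after the start) were matched to 69 members, 14 of them through a synonym, which gave 68 distinct windows. The NRF1 motif stood in 17 of the 68 windows (25%), against 5.8% of all 33469 windows and 7.62% of the 21851 windows of protein-coding genes. The YY1 motif stood in 9 (13.2%, against 1.73% and 2.07%), the ERR motif in 10 (14.7%, against 4.61% and 3.78%) and the GABP motif in 8 (11.8%, against 3.81% and 4.77%). The SP1 motif was about as frequent in the members (26 windows, 38.2%) as in all windows (33.1%) and in coding ones (41.8%), and its matches can overlap those of other GC-rich motifs. By complex, NRF1 matches lay in 8 of 30 windows of complex I, 1 of 4 of complex II, 1 of 6 of complex III, 1 of 13 of complex IV and 5 of 14 of complex V. These are matches of letters in a window, described without a test, and no binding was measured.

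Total counts lay between 13163021 and 23694602 per library, so that a count of 0 allows between 0.127 and 0.223 CPM (each gene's counts scaled to a common library total after TMM normalization), counting error only. The tissue's own markers were high in every library, with 8 adipocyte markers summing to between 36056 and 47762 CPM, while 7 skeletal muscle markers summed to at most 20.8 CPM. The degarelix plus FSH library of replicate 3 stood apart: it had the lowest total, lay at 44.18 on the first principal component (22.7% of the variance) where the other 4 libraries of its group lay between 2.58 and 12.65, and carried 14.0 CPM of mesothelium markers against 2.04 to 3.36 in those 4. Results that rest on it are given with and without it. In the vehicle group, degarelix only replicate 1 lay farthest out, at -28.08 on the same component, with the others between -14.08 and 4.51. Its TMM factor, 0.911, was the lowest of all libraries. The labels describe individual rats, and each library is 1 rat.

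None of the respiratory chain and ATP synthase genes passed the test for FSH against vehicle. Of the 81 members, 80 entered the fit (Cox8b was removed by the filter on low counts), and 0 of 80 had an adjusted p under 0.05 in edgeR's quasi-likelihood test with Benjamini-Hochberg adjustment over all 12846 genes, of which 292 (2.27%) did. DESeq2 and limma-voom also called 0 members. At an unadjusted p under 0.05 there were 2 members (2.5%), Ndufs1 and Atp5a1, in edgeR, against 22.6% of all genes, and 2 members in each of DESeq2 and limma-voom. In 0 of 80 members did the values of the 2 groups not overlap, against 4.34% of all genes. Fitted changes were above 0 in 41 members and below 0 in 39, with a median of 0.0023 on the log2 scale, where the median of all genes was 0.0081. Without degarelix plus FSH replicate 3, 0 members were called and the median was 0.02. The 95% interval of the change lay within 1.5-fold in either direction for 72 of the 80 members (90%), so a change of that size was outside the interval for most of them. The share over all genes, not matched for expression level, was 67.2%. The exceptions were Ndufs1, Ndufv2, Ndufa11, Ndufa13, Cox4i2, Cox6b2, Ndufa4l2 and Atp5f1. In bulk tissue, fewer cells of a type and less RNA per cell cannot be told apart, and this holds for each value of this tissue.

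**Figure D1:**
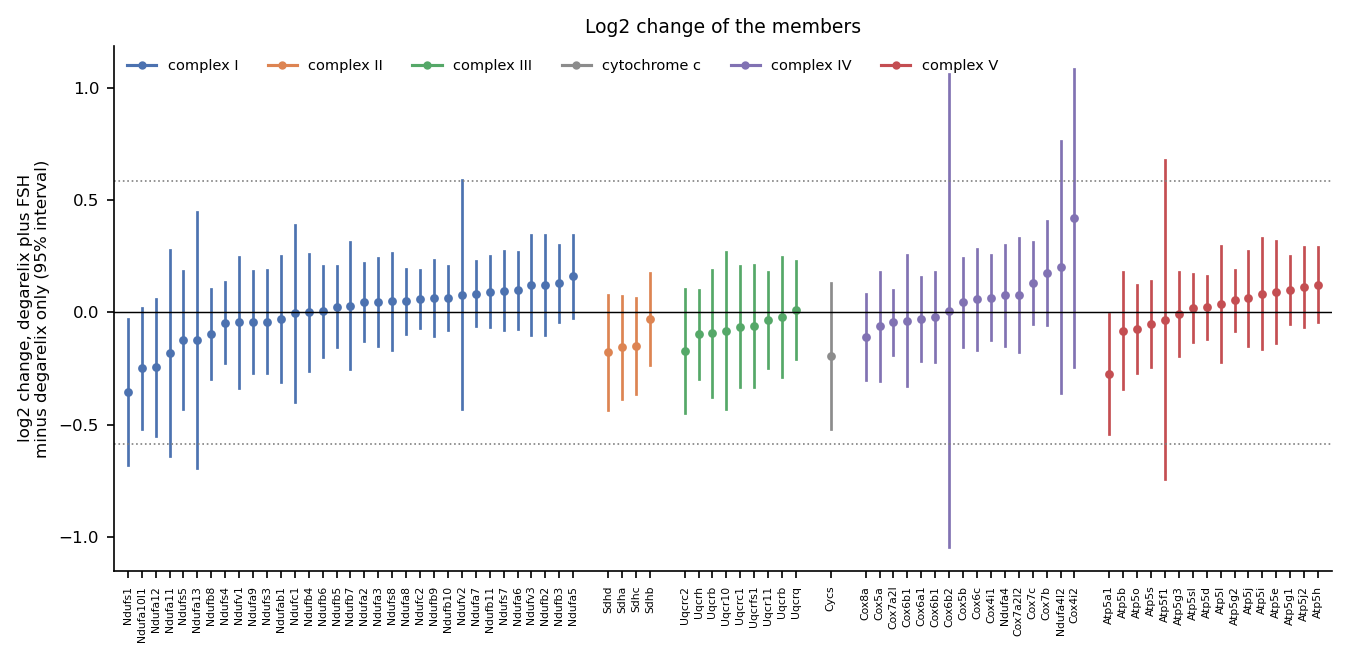
Log2 change (degarelix plus FSH minus degarelix only) of 79 of the 80 members tested, with points for the fitted value, bars for the 95% interval, colours for the complex, and dotted lines at 1.5-fold in either direction. Uqcrb and Cox6b1 appear as 2 gene rows each, most points sit close to 0, and the widest bars belong to the low rows Cox6b2, Cox4i2 and Atp5f1.

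The summed expression of all 81 members showed the same picture. In the 6 degarelix only rats, in order of replicate, it was 24197, 20618, 20522, 16634, 22262 and 19612 CPM, a mean of 20641 ± 2546 (SD, n = 6). In the 5 degarelix plus FSH rats it was 21498, 18039, 18972, 19435 and 22370 CPM, a mean of 20063 ± 1807 (SD, n = 5). The ratio of the means was 0.972, and the FSH rats all lay within the range of the vehicle rats, which spanned 1.45-fold from replicate 4 to replicate 1.

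**Figure D2:**
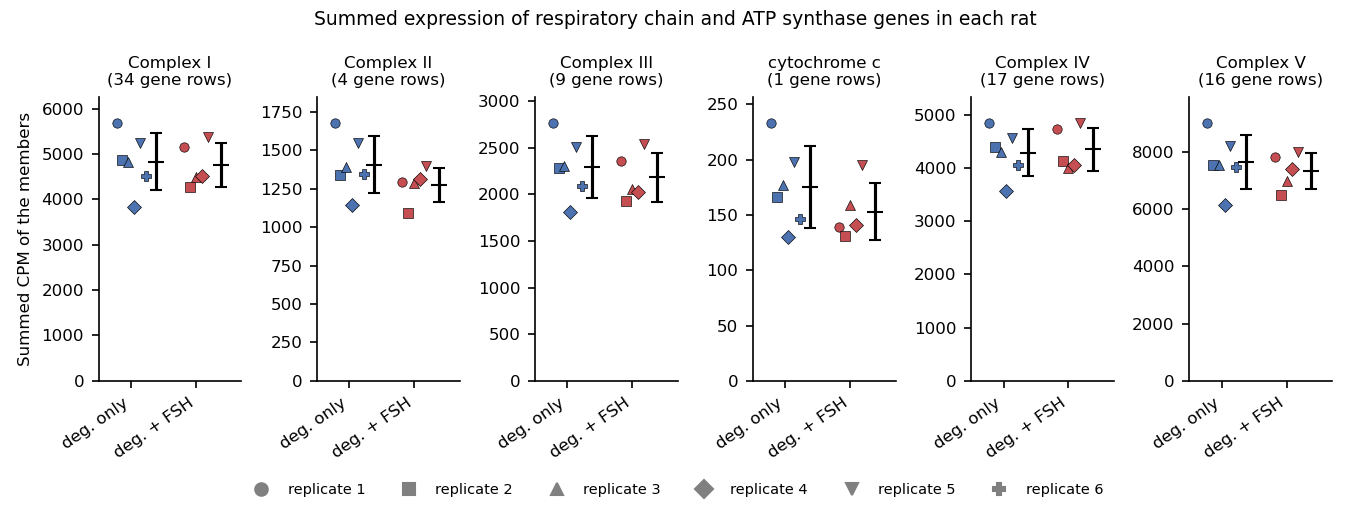
Summed CPM of the members of each complex (vertical axes from 0) in each rat, degarelix only in blue and degarelix plus FSH in red, with marker shapes for the replicate and bars for the mean and SD. In complex I the FSH rats, from 4270 to 5385 CPM, lie inside the span of the vehicle rats, from 3842 to 5680 CPM, and in each panel the degarelix only rat of replicate 1 is the highest of its group and that of replicate 4 the lowest.

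Complex I, the NADH dehydrogenase, had 20 members with a fitted change above 0 and 14 below, with a median log2 change of 0.03. Its sum was 4826 ± 629 CPM (SD, n = 6) in degarelix only and 4764 ± 480 CPM (SD, n = 5) in degarelix plus FSH. The 9 subunits of the NADH module, which binds NADH and starts the electron path, had a median log2 change of 0.05, the 5 of the ubiquinone module 0.05, and the 20 of the membrane arm and the rest 0.01. No member of the 3 modules passed the test.

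Ndufs1, the large iron-sulfur subunit of the NADH module, had the smallest p of all members. It measured between 153 and 261 CPM (median 191) in the degarelix only rats and 140, 132, 168, 165 and 183 CPM in the degarelix plus FSH rats. The groups overlapped: the rats of replicates 1 and 5 on degarelix only were the high ones, at 261 and 252 CPM, and the other 4 lay between 153 and 193. The log2 change was -0.35 ± 0.15 (SE), with an adjusted p of 0.189 in edgeR's quasi-likelihood test, between 0.106 and 0.339 when each library was left out in turn, and 0.231 without degarelix plus FSH replicate 3.

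Ndufv1, the NADH module subunit that binds NADH and the flavin, had a fitted change nearer 0. It measured 280 to 469 CPM (median 373) in degarelix only and 419, 289, 351, 345 and 434 CPM in degarelix plus FSH, so that the FSH rats fell inside the span of the vehicle rats. The log2 change was -0.04 ± 0.13 (SE), with an interval from -0.34 to 0.25.

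The next 2 entries of complex I by p lay on opposite sides of 0. Ndufa10l1, a row named for its likeness to Ndufa10, measured 189 to 312 CPM (median 250) in degarelix only and 206, 174, 220, 229 and 245 CPM in degarelix plus FSH (log2 change -0.25 ± 0.12 SE, edgeR adjusted p 0.258). Ndufa5, an accessory subunit of the ubiquinone module, measured 59.9 to 77.0 CPM (median 73.5) and then 86.4, 75.5, 76.5, 68.5 and 85.3 CPM (log2 change 0.16 ± 0.085 SE, edgeR adjusted p 0.281). For Ndufa5 the 2 highest rats of all 11 were FSH replicates 1 and 5 and the 2 lowest were degarelix only replicates 4 and 6, with the rest between 68.5 and 77.0 CPM. Ndufc2, a membrane arm subunit, was the steadiest member within groups: its SD on the log2 scale was 0.084, at 118 ± 6.65 CPM (SD, n = 6) against 123 ± 7.32 CPM (SD, n = 5).

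Several complex I rows are uncertain as measures of their subunits. Ndufa13 held only 10 to 28 counts per library (about 1 CPM), while a row outside the rule that is described as like subunit 13, LOC100911483, held 159 ± 14.3 CPM (SD, n = 6) and 168 ± 20.4 CPM (SD, n = 5). Reads of near-identical genes may be shared between such rows, so neither value can be taken as the subunit's own. The pseudogene Ndufv3-ps1 held 4858 counts in all, and whether reads of Ndufv3 are among them was not tested. Ndufs6 and Ndufb1 were not analysed here under those names.

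Complex II, succinate dehydrogenase, had all 4 of its subunits below 0, with a median log2 change of -0.15, and none passed the test. Sdha, the flavoprotein that oxidises succinate, measured 409 to 578 CPM (median 477) in degarelix only and 434, 354, 469, 501 and 449 CPM in degarelix plus FSH. Sdhb, the iron-sulfur subunit, measured 168 to 223 CPM (median 197) and then 207, 168, 188, 182 and 222 CPM. The ranges overlapped for both, almost fully for Sdhb, while FSH replicate 2 lay below the vehicle range for Sdha. Log2 changes were -0.16 ± 0.11 for Sdha and -0.03 ± 0.094 for Sdhb (SE). Of the membrane anchors, Sdhc was at 393 ± 55.4 CPM (SD, n = 6) against 355 ± 22.1 CPM (SD, n = 5), and Sdhd at 325 ± 52.5 CPM against 287 ± 34.1 CPM. Their log2 changes were -0.15 ± 0.098 and -0.18 ± 0.12 (SE), with edgeR adjusted p-values of 0.382 and 0.387. The share of complex II in the members' summed CPM was 6.50% to 6.94% in the degarelix only rats and 6.02%, 6.06%, 6.79%, 6.75% and 6.24% in the degarelix plus FSH rats. Replicates 1, 2 and 5 on FSH were below the vehicle rats in this share, while replicates 3 and 4 were among them; the share was described and not tested.

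Complex III, the cytochrome bc1 complex, had 8 of 9 rows below 0 and a median log2 change of -0.06. Uqcrc2, a core protein, had the smallest p among them, with 276 to 447 CPM (median 343) in degarelix only and 307, 264, 314, 328 and 372 CPM in degarelix plus FSH (log2 change -0.17 ± 0.13 SE, edgeR adjusted p 0.442). Its partner core protein Uqcrc1 and the Rieske iron-sulfur protein Uqcrfs1 both had log2 changes of -0.06 ± 0.12 (SE). Uqcrh, the hinge protein near cytochrome c1, was at 206 ± 22.9 CPM (SD, n = 6) against 192 ± 20.3 CPM (SD, n = 5). Uqcrb stood on 2 rows that share a symbol, with log2 changes of -0.02 ± 0.12 and -0.09 ± 0.13 (SE), and how reads were divided between them is uncertain. Cyc1, the cytochrome c1 subunit, lies outside the naming rule and was read with the pathway lists: its log2 change was -0.16 ± 0.14 (SE). Every FSH rat lay within the range of the vehicle rats for Uqcrc1 except replicate 2, at 322 CPM against a lowest vehicle value of 330 CPM.

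Cytochrome c (Cycs), the mobile carrier between complexes III and IV, measured 130 to 233 CPM (median 172) in degarelix only and 139, 131, 159, 141 and 195 CPM in degarelix plus FSH. Its highest rat, degarelix only replicate 1, stood 1.80-fold above its lowest, replicate 4, and the FSH rats lay inside that span. The log2 change was -0.19 ± 0.15 (SE), with an interval from -0.52 to 0.13.

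Complex IV, cytochrome c oxidase, had 10 of its 16 tested members above 0 and 6 below, with a median log2 change of 0.05. Cox4i1, the ubiquitous form of a core nuclear subunit, measured 693 to 969 CPM (median 885) in degarelix only and 972, 847, 874, 915 and 931 CPM in degarelix plus FSH. Only the degarelix only rat of replicate 4 lay apart, at 693 CPM, and the other 10 rats lay between 847 and 972 CPM, for a log2 change of 0.06 ± 0.087 (SE). Cox5a, a subunit on the matrix side, had a log2 change of -0.06 ± 0.11 (SE). The small subunits Cox7b (155 ± 21.5 CPM, SD, n = 6, against 175 ± 21.5 CPM, SD, n = 5) and Cox7c (195 ± 19.4 against 214 ± 19.4 CPM) had log2 changes of 0.18 ± 0.11 and 0.13 ± 0.084 (SE), and their edgeR adjusted p-values were 0.349 and 0.369. Cox8a, the ubiquitous form of subunit 8, had a log2 change of -0.11 ± 0.088 (SE). Cox6b1 stood on 2 rows, with log2 changes of -0.02 ± 0.093 and -0.04 ± 0.13 (SE). The share of complex IV in the members' summed CPM was at most 21.5% in degarelix only. In degarelix plus FSH it was 22.0%, 22.9%, 21.1%, 20.8% and 21.6%, with 3 of the 5 FSH rats above the vehicle range. Complexes II and IV did not stand alone in this. For complex I, FSH replicates 1, 2, 3 and 5 lay above the vehicle maximum of 23.6%. For complex V, FSH replicates 1, 2 and 5 lay below the vehicle minimum of 36.6%. Below the vehicle range were also FSH replicate 4 for complex III and FSH replicates 1, 2 and 4 for cytochrome c. The shares are parts of a whole and not independent of one another, again a description without a test.

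The isoforms that replace ubiquitous subunits in particular tissues or conditions held small shares of the counts. Since counts are not divided by transcript length, these shares compare groups, not the genes with one another. Cox4i2, the form known from lung and from low oxygen, had the largest positive fitted change of all members, at 0.42 ± 0.30 (SE, edgeR adjusted p 0.434). It measured 5.34 to 16.5 CPM (median 12.4) in degarelix only and 14.8, 24.2, 10.9, 10.2 and 16.6 CPM in degarelix plus FSH. FSH replicate 2 was well above the vehicle range and replicate 5 just above it, and the other 3 FSH rats were inside it. Cox4i2 made up 1.28% ± 0.42 (SD, n = 6) of the counts of the Cox4 pair in degarelix only and 1.68% ± 0.66 (SD, n = 5) in degarelix plus FSH.

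Ndufa4l2, a hypoxia-induced relative of the complex IV subunit Ndufa4, measured 9.29 to 24.4 CPM (median 17.8) in degarelix only and 23.2, 20.3, 12.5, 17.6 and 24.8 CPM in degarelix plus FSH. Its share of the Ndufa4 pair was 3.56% ± 0.95 (SD, n = 6) and 3.91% ± 0.60 (SD, n = 5). Cox6b2, the testis form, had the widest spread of all members within groups (SD of 0.88 on the log2 scale), from 1.18 to 8.33 CPM among the vehicle rats. Its share of the Cox6b counts was 1.45% ± 1.12 (SD, n = 6) and 1.47% ± 0.85 (SD, n = 5). The muscle form Cox6a2, below the minimum for members, made up 0.071% ± 0.029 (SD, n = 6) and 0.070% ± 0.016 (SD, n = 5) of the Cox6a counts.

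Across the 8 isoform shares compared by two-sided exact permutation over all 462 assignments of 6 and 5 rats, the smallest adjusted p was 0.797. For the Cox8b share the test could not decide, since 1 rat held most of the Cox8b counts. The share of muscle form Cox7a1 was not computed, since its ubiquitous partner Cox7a2 was not analysed here under that name.

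Cox8b, the subunit 8 form of muscle and brown fat, was detected in 3 libraries only. It had 106 counts (7.87 CPM) in the degarelix plus FSH rat of replicate 3, 4 counts in degarelix only replicate 5, 3 counts in degarelix plus FSH replicate 5 and 0 in the other 8 libraries, where a count of 0 allows 0.127 to 0.185 CPM. Cox8b met the minimum for members only through the rat with 106 counts. In that 1 rat it made up 1.64% of the Cox8a and Cox8b counts (exact Clopper-Pearson 95% interval 1.35% to 1.98%, counting error only). Its mean share in the FSH group was 0.334% with that rat, and the share lay between 0% and 0.0247% in the other 4 FSH rats. The exact permutation p of the share was 0.606. That value is set largely by which group holds that 1 rat, so the test cannot decide whether the groups differ.

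Ucp1, the uncoupling protein of brown and beige adipocytes, was found in the same library: 100 counts (7.43 CPM) in degarelix plus FSH replicate 3, 2 counts in degarelix only replicate 5, 1 count in degarelix plus FSH replicate 1 and 0 in the other 8. Other markers of brown and beige adipocytes differed less there. Cidea, a lipid droplet protein, was at 121 CPM, where the remaining FSH rats had 83.1 to 99.0 CPM and vehicle rats up to 182 CPM. Cpt1b was at 91.4 CPM, against 63.4 to 82.4 CPM in the remaining FSH rats and up to 103 CPM in vehicle rats. Kcnk3 was at 310 CPM, against 225 to 346 CPM and up to 303 CPM. Elovl3 and Cox7a1 were at 0 counts in that library, and Elovl3 had counts only in degarelix only replicate 1. The 7 brown and beige markers together summed to 538 CPM there, 371 to 512 CPM in the other FSH rats and 371 to 537 CPM in the vehicle rats. Markers of skeletal muscle were at 19.4 CPM there against 13.9 to 20.8 CPM in the other 10 rats, those of heart muscle at 0.965 CPM against at most 0.495 CPM, and those of mesothelium at 14.0 CPM against at most 7.39 CPM. The part of these other cell types in the Cox8b value was not tested.

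**Figure D3:**
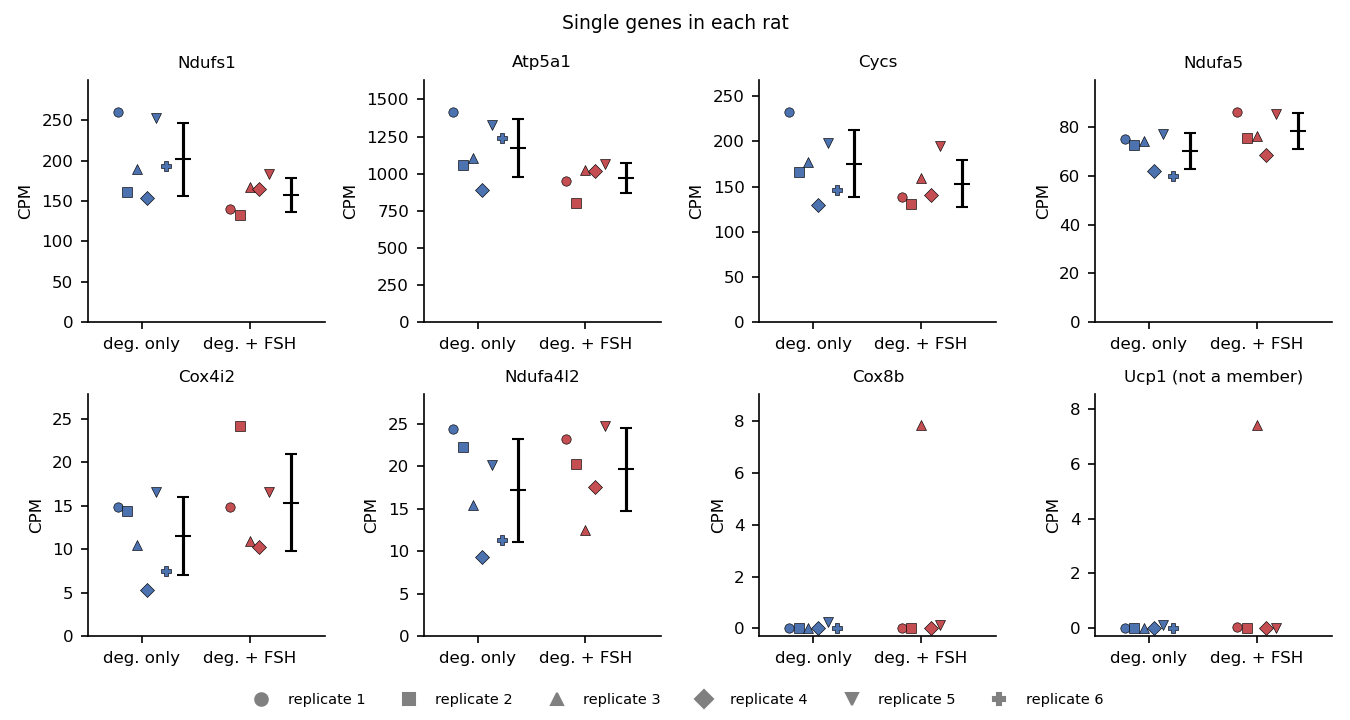
CPM of 7 members and of Ucp1 in each rat (vertical axes from 0, apart from a small margin under 0 for Cox8b and Ucp1), with marker shapes for the replicate and, for the first 6 genes, bars for the mean and SD. The groups overlap for each gene, and Cox8b and Ucp1 are near 0 except in degarelix plus FSH replicate 3, at 7.87 and 7.43 CPM.

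Complex V, the ATP synthase, had 10 members above 0 and 6 below, with a median log2 change of 0.03. Atp5a1, the alpha subunit of the catalytic head, measured 889 to 1418 CPM (median 1174) in degarelix only and 952, 803, 1022, 1019 and 1064 CPM in degarelix plus FSH. Of the 5 FSH rats, 4 lay inside the vehicle range and below its median, and replicate 2 lay under it. The log2 change was -0.27 ± 0.12 (SE), with an adjusted p of 0.214 in edgeR's quasi-likelihood test, and the lowest value when single libraries were left out was 0.0915, without degarelix only replicate 4. Atp5b, the beta subunit that forms the catalytic sites with it, measured 2719 to 4289 CPM (median 3466) and then 3563, 2800, 3113, 3580 and 3585 CPM, a log2 change of -0.08 ± 0.12 (SE). Whether the changes of these partner subunits differ was not tested.

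The other members of complex V had fitted changes between -0.08 and 0.12. Atp5h, in the stator stalk, was at 261 ± 19.2 CPM (SD, n = 6) and 284 ± 26.3 CPM (SD, n = 5), a log2 change of 0.12 ± 0.076 (SE). The 3 genes Atp5g1, Atp5g2 and Atp5g3 encode the same mature c subunit of the membrane ring. They made up 7.95% ± 0.53, 22.8% ± 1.18 and 69.2% ± 1.28 of their summed counts in degarelix only (SD, n = 6), and 8.39% ± 0.33, 23.4% ± 1.39 and 68.2% ± 1.21 in degarelix plus FSH (SD, n = 5), with exact permutation p-values of 0.134, 0.455 and 0.199 (adjusted 0.797, 0.808 and 0.797). Counts are not divided by transcript length, so these shares compare groups, not the genes with one another. The inhibitor of the enzyme, listed as Atpif1 and outside the naming rule, was at 45.5 ± 3.46 CPM (SD, n = 6) and 50.5 ± 7.84 CPM (SD, n = 5), a log2 change of 0.15 ± 0.096 (SE). The row named Atp5f1 held only 5 to 16 counts per library and is uncertain as a measure of the b subunit, the gamma subunit Atp5c1 was not analysed here under that name, and Atp5s and Atp5sl match by name without being subunits of the enzyme itself.

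The clearest pattern in these genes lay between rats of the same treatment. Among the 6 degarelix only rats, replicate 1 was the highest in 66 of the 80 members (82.5%), against 19.3% of all genes tested, and replicate 4 was the lowest in 70 (87.5%), against 22.0% of all genes. Among the 5 degarelix plus FSH rats, replicate 5 was the highest in 58 members (72.5%, against 15.7% of all genes), and the lowest rat was replicate 2 in 31, replicate 4 in 25 and replicate 3 in 21. The median SD within groups was 0.178 on the log2 scale for members and 0.188 for all genes, which were not matched to the members for expression level. What most members shared was the highest rat of each group and the lowest rat of the vehicle group. The members come from the same libraries and are not independent of one another, so these counts are a description.

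**Figure D4:**
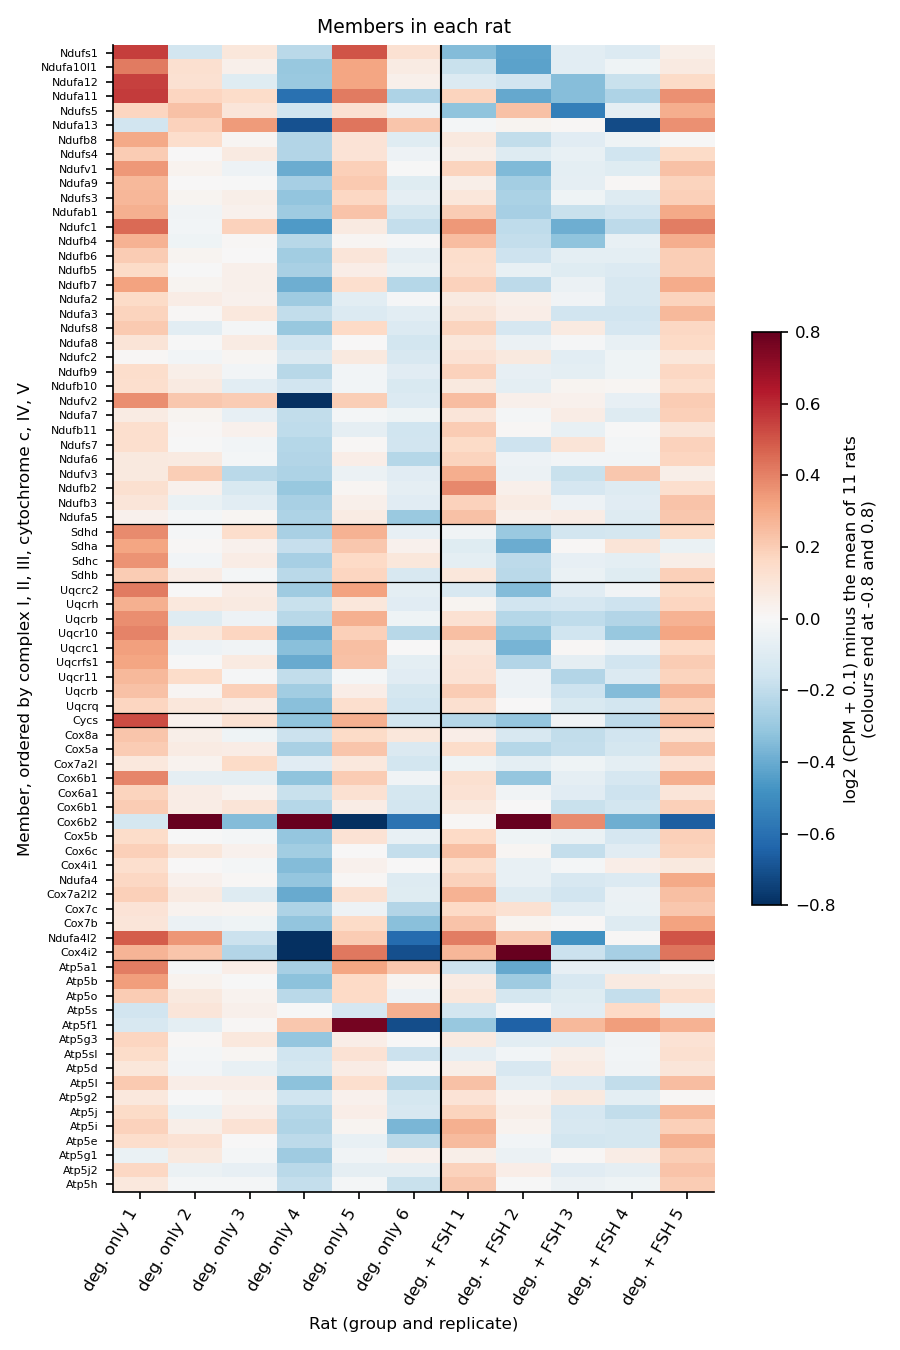
Heat map of 79 of the 80 members tested (rows, by complex) in each rat (columns), as log2 (CPM + 0.1) minus the mean of 11 rats, red above and blue below that mean. The columns for degarelix only replicate 1 and degarelix plus FSH replicate 5 are red in most rows, and that for degarelix only replicate 4 is blue in most rows; Uqcrb and Cox6b1 appear as 2 rows each.

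The high and low vehicle rats were the same in each complex. Relative to the mean of the degarelix only rats, replicate 1 had sums of 118% in complex I, 119% in complex II, 121% in complex III, 113% in complex IV and 118% in complex V. Replicate 4 had sums of 79.6%, 81.2%, 79.0%, 83.2% and 80.2% in the same complexes. Among the FSH rats, replicate 5 had 112%, 99.2%, 111%, 113% and 105%, and replicate 2 had 88.5%, 77.6%, 84.0%, 96.4% and 84.8%. Replicate 2 was the lowest FSH rat except in complex IV, where replicates 3 and 4 were lower, at 93.4% and 94.4%. The group means of FSH over vehicle stood at 0.987-fold in complex I, 0.907-fold in complex II, 0.951-fold in complex III, 1.02-fold in complex IV and 0.959-fold in complex V. Sums weigh genes by their counts, and most of the complex V sum came from Atp5b and Atp5a1. Their means were 3524 and 1174 of 7651 CPM in degarelix only and 3328 and 972 of 7334 CPM in degarelix plus FSH. By gene, 10 of the 16 complex V members had fitted changes above 0. Single rats spread more widely than means of rats, so the percentages and these ratios are not on a like footing.

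**Figure D5:**
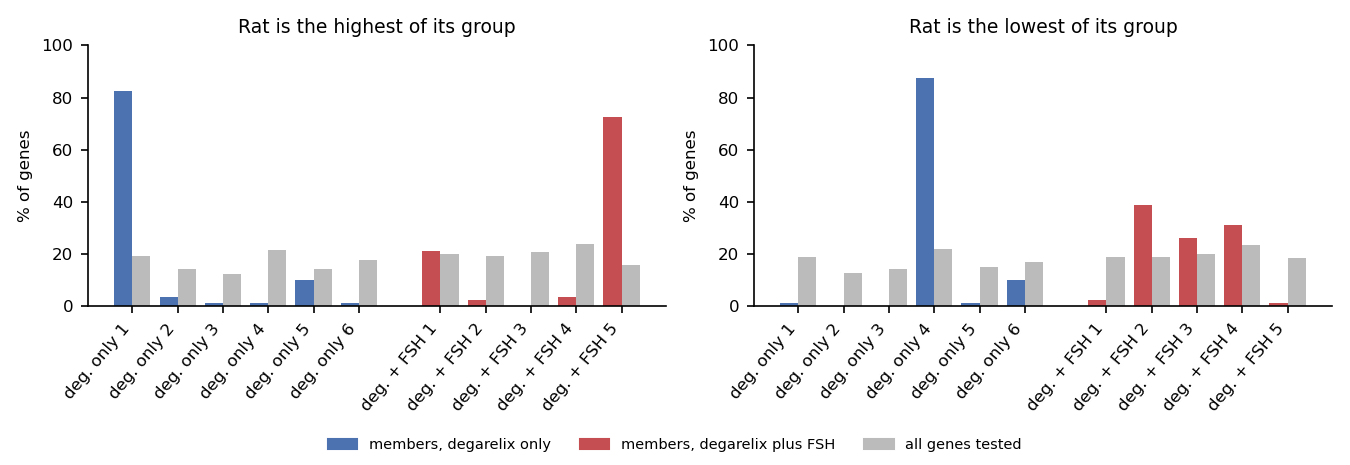
Percentage of genes for which each rat was the highest (left) or the lowest (right) of its group, with coloured bars for the 80 members tested and grey bars for all 12846 genes. Degarelix only replicate 1 was the highest in 82.5% of members and replicate 4 the lowest in 87.5%, where the grey bars stand at 19.3% and 22.0%.

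Markers of other cell types also differed between these rats. The 7 macrophage markers, each detected and tested, summed to 152, 149, 212, 389, 295 and 361 CPM in the degarelix only rats in order of replicate and to 186, 438, 172, 227 and 191 CPM in the degarelix plus FSH rats. The sum was highest in degarelix only replicate 4 and in FSH replicate 2, the rats with the lowest member sums of their groups, and it was 152 and 191 CPM in the rats with the highest member sums. Degarelix only replicate 5, however, had the second highest member sum of its group beside 295 CPM of macrophage markers. The 7 smooth muscle and pericyte markers were lowest in degarelix only replicate 4 (738 CPM, against 835 to 1082 CPM in the other 5 vehicle rats), and the 8 adipocyte markers were at 40580 CPM in that rat, inside the range of 36056 to 45092 CPM of its group. The 8 endothelial markers were all higher with FSH in the fit, where 6630 of all 12846 genes were. Of the 8, 5 had an unadjusted p under 0.05, against 22.6% of all genes. They summed to 1632 ± 170 CPM (SD, n = 6) and 2046 ± 393 CPM (SD, n = 5). Of these, 1 passed the threshold, which 2.27% of all genes passed: Tek, the angiopoietin receptor, rose, with 90.3 to 119 CPM (median 98.9) in degarelix only and 155, 156, 127, 111 and 128 CPM in degarelix plus FSH. Its log2 change was 0.44 ± 0.098 (SE, edgeR adjusted p 0.0431), and the call held in 3 of the 11 fits that left out a library (without degarelix only replicate 3 or 4 or FSH replicate 4), with an adjusted p of 0.0661 to 0.106 in the other 8. Without the low-count filter the adjusted p was 0.0512. The endothelial sum was highest in FSH replicate 1 (2638 CPM) and lowest of that group in replicate 4 (1618 CPM). The 7 smooth muscle and pericyte markers were also all higher with FSH in the fit, at 898 ± 124 CPM (SD, n = 6) and 1061 ± 123 CPM (SD, n = 5). So were the 3 erythroid, 2 mesothelium and 1 B cell markers tested. Of the 7 macrophage markers 5 were higher and 2 lower, and of the 8 adipocyte markers 4 were higher and 4 lower. The part of these cell types in the members' differences between rats, or in the members' changes, was not tested.

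Other mitochondrial genes were read from lists. Over all genes tested, 6630 changes were above 0 and 6216 below, 2.27% passed the threshold and 22.6% had an unadjusted p under 0.05. The 13 mitochondrially encoded subunits of the same complexes were at 0 counts in every library, so their expression was not measured in this table. The 71 tested genes of the mitochondrial ribosome had 23 changes above 0 and 48 below (median log2 change -0.05), with 1 past the threshold and 8 at an unadjusted p under 0.05. Mrpl49, a protein of its large subunit, fell from 21.4 ± 3.30 CPM (SD, n = 6) to 14.9 ± 1.90 CPM (SD, n = 5). Its values were 18.2 to 27.1 CPM (median 20.2) in degarelix only and 13.6, 12.6, 17.4, 16.0 and 15.1 CPM in degarelix plus FSH, with no overlap. The log2 change was -0.52 ± 0.12 (SE, edgeR adjusted p 0.0434), and the call held in only 2 of the 11 fits that left out a library, without degarelix only replicate 4 and without FSH replicate 4; in the other 9 the adjusted p lay between 0.0542 and 0.108.

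Of 9 genes that feed electrons to ubiquinone or carry them outside the naming rule, 5 were above 0 and 4 below, and 1 passed the threshold (2.27% of all genes did). Etfb, a subunit of the electron transfer flavoprotein that takes electrons from fatty acid oxidation, rose with FSH: it measured 188 to 244 CPM (median 208) in degarelix only and 282, 310, 279, 326 and 309 CPM in degarelix plus FSH. All 5 FSH rats lay above all 6 vehicle rats. The log2 change was 0.51 ± 0.082 (SE, edgeR adjusted p 0.0160), and without degarelix plus FSH replicate 2 the adjusted p was 0.0604. The extreme FSH rats on Etfb were not those of the members' summed CPM: the lowest was replicate 3 and the highest replicate 4.

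The remaining lists held no gene past the threshold. Of 48 assembly factors, which build the complexes, 13 were above 0 and 35 below (median -0.06), with 8 at an unadjusted p under 0.05, against 22.6% of all genes. The smallest p was that of Pet100, a complex IV factor (log2 change -0.35 ± 0.096 SE, edgeR adjusted p 0.0741). Of 18 genes of mitochondrial protein import, 4 were above and 14 below (median -0.10), led by the import channel Tomm40 (-0.33 ± 0.089 SE, edgeR adjusted p 0.0698). Of 16 genes of mitochondrial DNA upkeep and transcription, 5 were above and 11 below (median -0.06); Tfam, which packages and transcribes that DNA, was at 39.6 ± 3.43 CPM (SD, n = 6) and 39.5 ± 4.13 CPM (SD, n = 5), and the polymerase Polg had a log2 change of -0.19 ± 0.063 (SE). Of 13 genes of ubiquinone synthesis, 4 were above and 9 below (median -0.04), with the smallest p for Coq8a, listed as Adck3 (0.49 ± 0.17 SE, edgeR adjusted p 0.126). Of 6 genes of ATP export, phosphate import and outer membrane pores, 1 was above and 5 below (median -0.06), with the pore Vdac1 at -0.25 ± 0.097 (SE, edgeR adjusted p 0.161).

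The known transcriptional regulators of these genes had 7 of 12 changes above 0 and 5 below (median 0.05). Log2 changes were 0.10 ± 0.068 for Nrf1, 0.07 ± 0.075 for Gabpa, -0.08 ± 0.073 for Esrra and 0.24 ± 0.27 for the coactivator Ppargc1b (SE). Sp1 had the smallest p, with 59.1 ± 3.14 CPM (SD, n = 6) and 67.3 ± 2.80 CPM (SD, n = 5), a log2 change of 0.19 ± 0.052 (SE, edgeR adjusted p 0.0803). Ppargc1a, the coactivator best known for raising mitochondrial gene expression, had only 0 to 10 counts per library and was not tested, so a difference in it was not detectable at this depth.

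The highest and lowest rats of the members' sums were also the extremes of most of these lists. Degarelix only replicate 1 had the highest sum of its group and replicate 4 the lowest in 7 lists: assembly factors (2252 and 1890 CPM), electron entry (1403 and 1006 CPM), mitochondrial DNA upkeep (547 and 454 CPM), protein import (1257 and 946 CPM), mitochondrial ribosome (3810 and 2958 CPM), ubiquinone synthesis (709 and 613 CPM), and ATP export with pores (2557 and 1910 CPM). FSH replicate 2 had the lowest sum of its group in the same 7 lists, and replicate 5 the highest in all of them but ubiquinone synthesis, where replicate 4 led with 781 CPM. The regulators went the other way in these rats: their sum was 330 CPM in degarelix only replicate 1 and 373 CPM in replicate 4, and 335 CPM in FSH replicate 5 and 375 CPM in FSH replicate 2. The vehicle extremes of that sum were other rats, however, with 313 CPM in replicate 5 and 384 CPM in replicate 6. These sums are descriptions of 11 libraries and carry no test.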

How the data were processed

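Whole-number read counts per Ensembl gene were deposited by the authors, without normalization, in 1 column for each rat (judged from the values). Per the labels' protocols, the mRNA libraries kept strand and were read from both ends; the tools STAR, DESeq2 and edgeR and the build rn6 are named, without roles, per the submitters' processing notes. The counting program, annotation and strand setting are not given, so overlapping, antisense and near-identical genes can share counts. The row of Pcmt1 holds a letter in 1 cell and was removed from the 25275 rows; 17034 rows had a count, and filterByExpr kept 12846.

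Groups and columns came from the labels. FSH and vehicle were compared with edgeR 4.0.16 in R 4.3.3 (TMM, group as the only term, robust quasi-likelihood F test with 9 residual degrees of freedom, two-sided, Benjamini-Hochberg over all genes, threshold 0.05). The biological coefficient of variation was 0.191. The step was tested on simulated data. All libraries differed beyond sampling noise (chi-square per degree of freedom at least 21.3). Isoform shares were compared by exact permutation (SciPy 1.17.1) where the set had at least 20 counts in each library.

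Pseudogene names (2 rows) and Ndufaf names (7 rows) were dropped. The members and lists were chosen with earlier results of these data known. Genes named were, per complex, the 3 of smallest p and the 1 of highest CPM, the isoform sets, core subunits and extremes of change; per pathway list, genes past the threshold or the 1 of smallest p; and Ppargc1a, Ppargc1b, Esrra, Nrf1, Gabpa, Tfam and Cyc1. Others, such as Ndufc2, Ndufa13, Ucp1, Cidea and Tek, were chosen after their values were seen. A gene that the rule takes is not reported here, though counts and sums include it. Of the symbols listed, 298 matched (8 through a synonym or identifier), 12 did not and 2 stood on several rows. Alternatives were 2 scalings, 2 filters, no robust estimation, DESeq2 1.42.0, limma-voom (limma 3.58.1), a threshold of 0.10, a replicate block, each library left out, and isoform differences in log2 CPM (prior count 2). Promoter windows are of GRCr8, not of the files' build.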

Additional observations from a re-analysis of the deposited data

Results flagged for a closer look

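In 128 sets of 5 or 6 rats, 10 values lay far from the others of their group. Chance alone marks about 1 group in 20 where values are independent and roughly normal. That rate does not carry over to Cox8b, which was mostly at 0 and entered both as CPM and as a share. In degarelix plus FSH replicate 3, Cox8b was at 7.87 CPM (others 0 to 0.145) and made up 1.64% of the Cox8 counts (others 0% to 0.0247%). In degarelix only replicate 5, Cox8b was at 0.248 CPM and 0.0413% of the Cox8 counts, with 0 in the other 5 rats, a value that rests on 4 counts. The Ndufa4l2 share of the Ndufa4 pair was 2.86% in degarelix plus FSH replicate 3, against 3.94% to 4.37% in the other 4 rats. Cox4i1 was at 693 CPM in degarelix only replicate 4, against 872 to 969 CPM in the other 5.

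Among cell type markers, 4 sums stood apart in the FSH group: mesothelium 14.0 CPM (others 2.04 to 3.36) and heart muscle 0.965 CPM (others 0 to 0.242), both in replicate 3, macrophage 438 CPM in replicate 2 (others 172 to 227), and erythroid genes 1219 CPM in replicate 4 (others 323 to 529). Their part in any value of the respiratory chain was not tested.

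Of the rows examined that are not members, 4 held counts in each library. Atpif1 and LOC100911483 are described in the report, and the other two were Cox6a2, the muscle form of subunit 6a, with 73 counts in all (4 to 10 per library), and the pseudogene row Ndufv3-ps1, with 4858 counts (305 to 611 per library).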

How the results depend on the processing

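The count of members called was 0 under each scaling, filter, tool, threshold, replicate block and left-out library tried, although 2 members had an adjusted p under 0.10 without degarelix only replicate 4 (lowest 0.0915, Atp5a1). The median change of the members lay between -0.05 and 0.05 when libraries were left out. The count over all genes was less steady: 292 as reported, 1103 with DESeq2, 962 at a threshold of 0.10, and 30 (without degarelix plus FSH replicate 2) to 551 (without FSH replicate 4) with a library left out. The replicate numbers do not pair the rats (same-numbered deviations correlated at 0.118, -0.110, -0.109, 0.130 and 0.124, and no FSH library correlated best with its own number); with the number as a block, 14 genes and 0 members were called. Some changes near 0 switched sign. With upper-quartile factors Atp5g3 was at 0.00357, and as a log2 difference the Cox6a2 share was at 0.0277. With a library left out, log2 changes ran from -0.117 to 0.0304 for Ndufv1, -0.0836 to 0.0181 for Sdhb, -0.129 to 0.0110 for Uqcrc1, -0.0638 to 0.00805 for Cox6a1, -0.0740 to 0.0206 and -0.122 to 0.0464 for the Cox6b1 rows, -0.350 to 0.330 for Cox6b2 and -0.0631 to 0.0268 for Atp5g3. Differences in share, in percentage points, ran from -0.00759 to 0.00491 for Cox6a2, -0.309 to 0.398 for Cox6b2, and -0.000715 (without degarelix plus FSH replicate 3) to 0.410 for Cox8b. The causes were not tested. At about 1 CPM or less, the intervals of Ndufa13 and Atp5f1 reached past 1.5-fold, and mitochondrially encoded subunits were not measured.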
